A study of Mus musculus with 6 samples.

Results

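The genes of the microRNA processing pathway and Sfmbt2 were compared in control and Tet1/Tet2 siRNA-treated BMMSCs. BMMSCs are the plastic-adherent cells grown from mouse bone marrow, which the study names bone marrow mesenchymal stem cells. The genes are 10 of the 36870 gene symbols in the deposited table and were chosen by symbol: Drosha, Dgcr8, Xpo5, Dicer1, Tarbp2, Ago1, Ago2, Ago3, Ago4 and Sfmbt2. The Control group holds 3 libraries from C57BL/6 BMMSCs given non-targeting siRNA, and the siTet1/Tet2 group holds 3 libraries from C57BL/6 BMMSCs given siRNAs against Tet1 and Tet2 together. The RNA-seq methods name the controls as vehicle-treated, whereas the siRNA methods name non-targeting siRNAs as negative controls. The methods give the cells as passage 1, where the labels give passage 2. Neither the labels nor the methods say whether the 3 libraries of a group came from separate mice or cultures, so p-values measure the spread between these libraries, which may be technical. The siRNAs lower a transcript for a limited time in cells of a mixed primary culture, and no library carries a gene deletion.

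A microRNA is cut from its transcript in the nucleus by the RNase Drosha, held to the RNA hairpin by Dgcr8, and the hairpin is carried to the cytoplasm by the export receptor encoded by Xpo5. The RNase Dicer, with its partner Tarbp2, then trims the hairpin to a short duplex, and a strand of it is loaded into an Argonaute protein, the core of the silencing complex. In mouse, Argonaute 2 is the family member whose slicing of target RNA is established. Sfmbt2 is a Polycomb group gene, paternally expressed in early mouse development and in the placenta, and an intron of the mouse gene holds a large cluster of microRNA genes that includes the miR-297, miR-466, miR-467 and miR-669 families. The question put to the data was whether any step of this pathway, or the transcript that hosts the cluster, differed in level after the knockdown.

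The values are RPKM, read density on a gene adjusted for gene length and library size, so that levels can be set side by side between genes. Fold changes are differences between groups in log2(RPKM + 1), a scale that shrinks the differences of weakly expressed genes, and were tested with limma over the 13266 genes that averaged 0.1 RPKM or more. A gene was called at an adjusted p under 0.05 (Benjamini-Hochberg). Tet2 fell from 3.45 ± 0.785 to 0.266 ± 0.0817 RPKM (SD, n = 3), and Tet1 was listed at 0.032, 0.098 and 0.05 RPKM in control and 0.001, 0.01 and 0.001 RPKM in siTet1/Tet2 libraries, under the minimum for testing. Of 16 stromal marker genes tested, 13 fell and 1 (Vcam1) rose, and the summed RPKM of all 19 listed was 1620 to 2320 in control and 270.5 to 487 in siTet1/Tet2 libraries. Of 15 macrophage marker genes, 7 rose, 3 fell and 5 were not called, with none of them at 0. Their sum was 7717 to 10336 in control and 15793 to 18920 RPKM in siTet1/Tet2 libraries. Most of the rise in that sum came from Lyz2, with means of 4439 RPKM in control and 11321 RPKM in siTet1/Tet2 libraries. Of those that fell, Fcgr1 went from 109 to 27.8 RPKM. The pan-leukocyte gene Ptprc stood at 52.6 ± 4.57 RPKM in control and 53.0 ± 6.04 RPKM in siTet1/Tet2 libraries (SD, n = 3). Its control level was above the 9.92 ± 1.52 RPKM of the stromal receptor gene Pdgfra. The stromal markers Thy1, Lepr and Lum had means under 0.1 RPKM in both groups. The summed RPKM of 12 markers of other blood and endothelial cells was 2.63 to 2.77 in control and 10.0 to 16.9 in siTet1/Tet2 libraries, of which S100a8 made up the larger part, and 8 of the 12 were under 0.1 RPKM in every library. The stromal and macrophage sums therefore moved with the groups, and the macrophage sum was above the stromal sum in every library. The levels given below are those of the mixed culture and cannot be assigned to its stromal cells. For every gene below, fewer cells of a type and less RNA per cell cannot be told apart in these bulk samples, and the part of cell makeup in each result was not tested.

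Control replicate 3 stood apart from the other control libraries in a way that followed transcript length. The tested genes were split into 3 parts of like size by their longest annotated transcript. Over the genes with the longest transcripts (4181 genes, 4228 nt or more), the median log2 ratio of Control replicate 3 to the mean of Control replicates 1 and 2 was 0.14, and over those with the shortest (4182 genes) it was -0.12. For siTet1/Tet2 replicate 3 against siTet1/Tet2 replicates 1 and 2, these medians were 0.10 and -0.02, a smaller trend in the same direction. The median log2 fold change between the groups was -0.11 over the longest part and -0.06 over the shortest. All of the 10 genes except Tarbp2 lie in the longest part. In Control replicate 3, Ago3 was 0.46, Ago2 0.44 and Dicer1 0.33 higher on the log2 scale than in the other controls, and Ago4 was 0.24 lower (log2 difference -0.24). The part of this in the results was not tested beyond the values without that library, which are given where they change the call of a gene described.

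All 10 genes passed the filter on low values. By limma, 5 were called. Drosha, Xpo5 and Tarbp2 fell, and Ago1 and Ago4 rose. Among all genes tested, 44.5% were called, 29.8% lower and 14.7% higher, so that 5 of 10 is a share near that of the whole table. The control and siTet1/Tet2 values of those 5 genes did not overlap, which was also the case for 55.7% of all genes tested. With an unadjusted p under 0.05 and a change over 2-fold, the limits the study used, 0 of the 10 passed on the log2(RPKM + 1) scale and 6.58% of all genes did. When the fold was instead taken as the ratio of the mean RPKM, with no pseudocount, Ago4 passed (ratio 2.02), and 14.5% of all genes did. By limma without adjustment, 5 of the 10 had a p under 0.05. The median log2 fold change was -0.01 over the 10 genes and -0.09 over all genes tested. Scaling moved that all-gene median from -0.09 to 0.01 with median ratio scaling and to 0.06 with quantile normalization, and the balance among the 10 moved from 3 lower and 2 higher to 1 lower and 2 higher, and to 1 lower and 3 higher. Rescaling each library to the same sum moved the all-gene median the other way, to -0.16, with 3 of the 10 lower and 1 higher. Over all genes, calls went from 3952 lower and 1953 higher to 2931 lower and 2886 higher with median ratio scaling, to 2627 lower and 3607 higher with quantile normalization, and to 4376 lower and 1525 higher with the same sum. Drosha and Ago4 were called in each of the 17 fits at an adjusted p under 0.05.

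**Figure D1:**
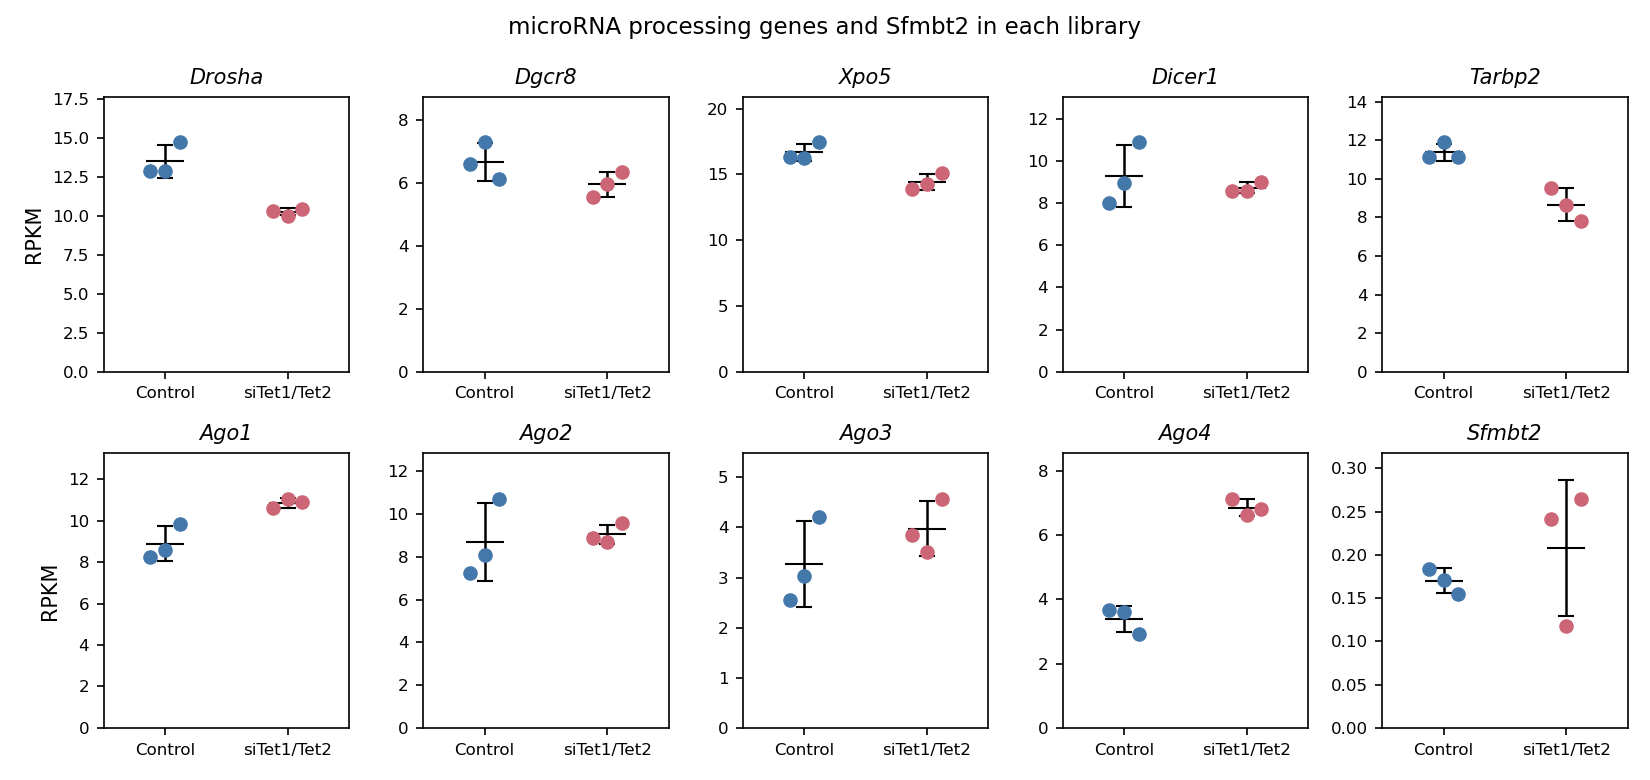
Each panel plots RPKM (vertical axis, from 0) of 1 gene in the 3 Control (blue) and 3 siTet1/Tet2 (red) libraries, replicates 1 to 3 from left to right, with the mean as a horizontal line and the SD as an error bar. The groups are apart for Drosha, Xpo5, Tarbp2, Ago1 and Ago4 and overlap for the other genes, and Ago4 runs from 2.92 to 3.67 in Control and from 6.62 to 7.14 in siTet1/Tet2.

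In control libraries the levels ran from Xpo5 (16.7 RPKM) through Drosha (13.5), Tarbp2 (11.4), Dicer1 (9.29), Ago1 (8.89), Ago2 (8.67), Dgcr8 (6.66), Ago4 (3.40) and Ago3 (3.27) to Sfmbt2 (0.170). The ranges of Dicer1, Ago1 and Ago2 overlapped in this order, as did those of Ago2 and Dgcr8 and those of Ago4 and Ago3. In siTet1/Tet2 libraries the order was Xpo5 (14.4 RPKM), Ago1 (10.9), Drosha (10.3), Ago2 (9.04), Dicer1 (8.73), Tarbp2 (8.67), Ago4 (6.86), Dgcr8 (5.95), Ago3 (3.98) and Sfmbt2 (0.208). There the ranges of Ago2, Dicer1 and Tarbp2 overlapped, and the ranges of other neighbours did not. Ago4 thus moved from a range that overlapped that of Ago3 to one above Dgcr8 and Ago3.

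Drosha, the nuclear RNase that opens the pathway, lies on chromosome 15 of GRCm38 (12824815 to 12935291, plus strand). It was at 12.9, 12.9 and 14.7 RPKM in control and at 10.3, 10.0 and 10.5 RPKM in siTet1/Tet2 libraries. Each treated library was below each control library, a fall from 13.5 ± 1.06 to 10.3 ± 0.228 RPKM (SD, n = 3). The log2 fold change was -0.36 (SE 0.08, limma adjusted p = 0.00593), and -0.28 when set against the all-gene median. Across the settings it lay between -0.44 and -0.22, with adjusted p between 0.00416 and 0.0442.

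Dgcr8, the RNA-binding partner of Drosha in the Microprocessor, is on chromosome 16 (18253948 to 18289246, minus strand). Its values were 6.59, 7.29 and 6.11 RPKM in control and 5.54, 5.96 and 6.35 RPKM after the knockdown. The groups overlapped, with means of 6.66 ± 0.592 and 5.95 ± 0.406 RPKM (SD, n = 3). The log2 fold change of -0.14 (95% interval -0.35 to 0.07, limma adjusted p = 0.251) was not past the threshold. Exons of Dgcr8 share 825 bp with exons of Trmt2a on the opposite strand, where Trmt2a was at 20.8 RPKM in control and 18.1 RPKM in siTet1/Tet2 libraries. Since the use of strand in the counting is not given in the sources used here, reads of the 2 genes may be mixed in the shared part. The Drosha to Dgcr8 ratio of RPKM was 2.04 ± 0.330 in control and 1.73 ± 0.114 in siTet1/Tet2 libraries (exact permutation p = 0.2, two-sided), and their difference of -0.31 was -0.13 without Control replicate 3.

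Xpo5, whose product exports hairpin precursors, is on chromosome 17 (46202782 to 46243598, plus strand). It was at 16.4, 16.2 and 17.4 RPKM in control libraries and at 13.9, 14.3 and 15.1 RPKM in siTet1/Tet2 libraries. The groups did not overlap, and the mean fell from 16.7 ± 0.667 to 14.4 ± 0.607 RPKM (SD, n = 3). On the log2 scale the change was -0.20 (SE 0.07, limma adjusted p = 0.0445), and -0.11 relative to the all-gene median. The call was lost with median ratio scaling (log2 fold change -0.08, adjusted p = 0.333) and quantile normalization (-0.06, adjusted p = 0.504). It was also lost without Control replicate 1 (adjusted p = 0.0699), 2 (0.0877) or 3 (0.0786), and without siTet1/Tet2 replicate 1 (0.147) or 2 (0.128), all by limma.

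Dicer1, the cytoplasmic RNase, is on chromosome 12 (104687742 to 104751952, minus strand). Its values were 7.999, 8.96 and 10.9 RPKM in control and 8.59, 8.58 and 9.03 RPKM in siTet1/Tet2 libraries. The 3 treated values lay inside the range of the controls, and the means were 9.29 ± 1.48 and 8.73 ± 0.260 RPKM (SD, n = 3). This gave a log2 fold change of -0.07 (95% interval -0.32 to 0.18, limma adjusted p = 0.628). Its sign turned to 0.04 without Control replicate 3, to 0.04 with median ratio scaling and to 0.09 with quantile normalization.

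Tarbp2, a Dicer partner that helps to load the silencing complex, is on chromosome 15 (102518192 to 102523676, plus strand). It was at 11.2, 11.9 and 11.1 RPKM in control and at 9.51, 8.66 and 7.83 RPKM in siTet1/Tet2 libraries. The values did not overlap, with a fall from 11.4 ± 0.438 to 8.67 ± 0.840 RPKM (SD, n = 3). The log2 fold change was -0.36 (SE 0.09, limma adjusted p = 0.0101), and -0.27 against the all-gene median. It remained negative in each setting, at -0.25 with median ratio scaling (adjusted p = 0.0610) and -0.21 with quantile normalization (adjusted p = 0.106), where the call was lost. The Tarbp2 to Dicer1 ratio went from 1.25 ± 0.199 to 0.995 ± 0.121 (exact permutation p = 0.2, two-sided), with overlapping groups.

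**Figure D2:**
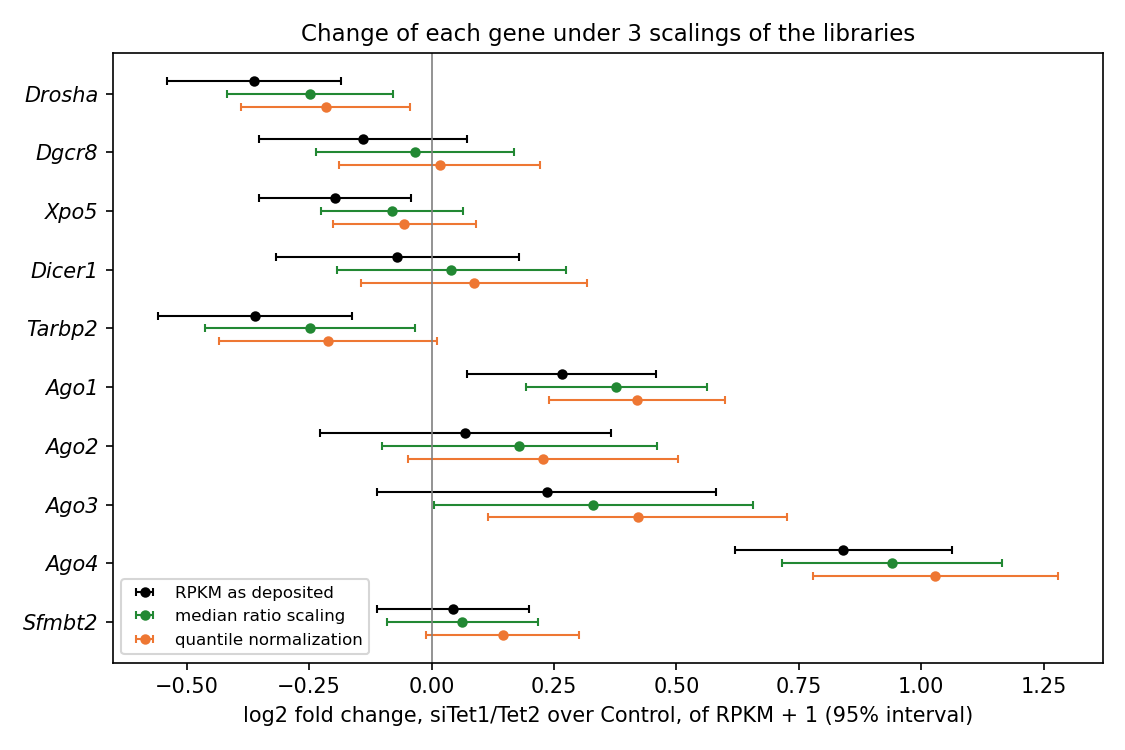
Points give the log2 fold change of RPKM + 1, siTet1/Tet2 over Control, for each of the 10 genes, with 95% intervals from limma, for RPKM as deposited (black), median ratio scaling (green) and quantile normalization (orange), and the vertical line marks 0. Ago4 lies farthest to the right in each scaling (0.84, 0.94 and 1.03), the interval of Drosha stays below 0, and those of Xpo5 and Tarbp2 reach or approach 0 after rescaling.

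The Argonaute genes gave the largest difference among the 10. Ago4 was about 2-fold higher after the knockdown, Ago1 was modestly higher, and Ago2 and Ago3 were not called. Ago3, Ago1 and Ago4 lie in tandem on the minus strand of chromosome 4, with 5455 bp between Ago3 and Ago1 and 20957 bp between Ago1 and Ago4, whereas Ago2 is alone on chromosome 15 (73095844 to 73184935, minus strand). The 200 bases before the start of each gene in the tandem, from RefSeq on GRCm38.p6, are shown with every CpG in capitals. CpG is the site at which Tet enzymes oxidise 5-methylcytosine. Ago4 moved further (log2 fold change 0.84) than its neighbours Ago1 (0.27) and Ago3 (0.24), which were alike. DNA methylation was not measured in these samples, and a relation between CpG number and change was not tested. The Sfmbt2 start is shown for contrast, as the start with the fewest CpGs among the 9 genes with a RefSeq promoter entry.
Ago4 (chr4:126533459-126533658, minus strand): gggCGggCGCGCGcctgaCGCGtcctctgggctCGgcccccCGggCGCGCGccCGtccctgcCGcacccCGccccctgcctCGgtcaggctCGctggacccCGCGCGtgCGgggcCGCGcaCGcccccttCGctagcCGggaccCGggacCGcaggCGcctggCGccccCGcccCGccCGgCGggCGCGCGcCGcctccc
Ago1 (chr4:126468632-126468831, minus strand): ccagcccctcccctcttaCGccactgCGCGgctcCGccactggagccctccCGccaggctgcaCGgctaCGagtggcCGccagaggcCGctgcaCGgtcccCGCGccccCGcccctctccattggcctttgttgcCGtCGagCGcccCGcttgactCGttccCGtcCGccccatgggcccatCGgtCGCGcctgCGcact
Ago3 (chr4:126429543-126429742, minus strand): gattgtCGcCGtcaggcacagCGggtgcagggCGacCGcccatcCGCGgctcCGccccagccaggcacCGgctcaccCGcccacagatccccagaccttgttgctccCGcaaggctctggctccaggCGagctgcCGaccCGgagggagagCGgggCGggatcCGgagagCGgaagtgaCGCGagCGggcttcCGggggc
Sfmbt2 (chr2:10370251-10370450, plus strand): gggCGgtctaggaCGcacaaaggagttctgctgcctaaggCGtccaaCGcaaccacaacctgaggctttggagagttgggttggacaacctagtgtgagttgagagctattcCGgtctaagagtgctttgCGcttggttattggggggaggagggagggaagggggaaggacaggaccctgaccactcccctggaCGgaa
These stretches hold 37 CpGs for Ago4, 24 for Ago1, 22 for Ago3 and 7 for Sfmbt2. Over the full RefSeq windows of 300 bases (250 before to 50 after the start), 9 of the 10 genes had an entry (not Ago2), 2 of them (Ago1 and Sfmbt2) with a second start. The Ago4 window held 54 CpGs, and 99.7% of the 32851 promoter windows of that length held fewer. Dicer1 held 49, Dgcr8 43, Xpo5 40, Drosha and Ago3 37 each, Ago1 31 at its first and 38 at its second start, and Tarbp2 21. The first Sfmbt2 window held 9 and the second 16, where the median of all windows was 7 and the upper quartile 20.

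Ago4, on chromosome 4 from 126489541 to 126533472, was at 3.67, 3.60 and 2.92 RPKM in control and at 7.14, 6.62 and 6.81 RPKM in siTet1/Tet2 libraries. The lowest treated value was well above the highest control value, and the mean rose from 3.40 ± 0.412 to 6.86 ± 0.263 RPKM (SD, n = 3), a ratio of 2.02. In log2 terms the rise was 0.84 (SE 0.10, 95% interval 0.62 to 1.06, limma adjusted p = 0.000234), and 0.93 against the all-gene median. Its values across the settings were 0.76 to 1.03, with adjusted p between 0.000142 and 0.0018. Reads were estimated from depth, itself taken from low RPKM values, and from the longest annotated transcript, which may not be the length the authors used. By this estimate, about 619 to 902 reads lay behind the control values and about 1571 to 1801 behind the treated values.

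Ago1, on chromosome 4 from 126435012 to 126468583, was at 8.23, 8.60 and 9.84 RPKM in control and at 10.6, 11.1 and 10.9 RPKM in siTet1/Tet2 libraries. The groups did not overlap, and the mean rose from 8.89 ± 0.845 to 10.9 ± 0.231 RPKM (SD, n = 3). On the log2 scale the rise was 0.27 (SE 0.08, limma adjusted p = 0.0322), and 0.35 against the all-gene median. The call was lost when each library was rescaled to the same sum (0.22, adjusted p = 0.147). It was lost without Control replicate 1 (adjusted p = 0.0919) or 2 (0.105), and without siTet1/Tet2 replicate 1 (0.0727), 2 (0.102) or 3 (0.0700), all by limma.

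Ago2, which encodes the slicing Argonaute, was at 7.23, 8.08 and 10.7 RPKM in control and at 8.89, 8.68 and 9.56 RPKM in siTet1/Tet2 libraries. The treated values lay inside the control range, with means of 8.67 ± 1.82 and 9.04 ± 0.461 RPKM (SD, n = 3). In log2 terms the difference was 0.07 (95% interval -0.23 to 0.37, limma adjusted p = 0.692), and -0.04 without Control replicate 1. Exons of Ago2 share 219 bp with Chrac1 on the opposite strand. Ago3, on chromosome 4 from 126331704 to 126429556, was at 2.55, 3.04 and 4.21 RPKM in control and at 3.85, 3.51 and 4.58 RPKM in siTet1/Tet2 libraries. The groups overlapped through Control replicate 3, and the means were 3.27 ± 0.852 and 3.98 ± 0.543 RPKM (SD, n = 3). The log2 fold change was 0.24 (95% interval -0.11 to 0.58, limma adjusted p = 0.236), and it was called without Control replicate 3 (0.39, adjusted p = 0.0321) and with quantile normalization (0.42, adjusted p = 0.0309). The 4 Argonaute genes are paralogs, and how the authors' counting treated reads that match several of them is not given in the sources used here.

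Because a ratio within a library is not changed by multiplying that library by a constant, the Argonautes were also expressed as shares of their summed RPKM. The sum was 21.7, 23.3 and 27.7 RPKM in control and 30.5, 29.9 and 31.8 RPKM in siTet1/Tet2 libraries, 26.9% higher on average, without overlap (exact permutation p = 0.1, two-sided, the smallest p that 3 against 3 allows). The Ago4 share was 16.9%, 15.4% and 10.6% in control and 23.4%, 22.2% and 21.4% in siTet1/Tet2 libraries, means of 14.3% ± 3.33 and 22.3% ± 1.03 (SD, n = 3). The Ago2 share was 33.3%, 34.7% and 38.7% in control and 29.1%, 29.0% and 30.0% after the knockdown, means of 35.6% ± 2.79 and 29.4% ± 0.532 (SD, n = 3). Neither pair of groups overlapped, and each gave the smallest possible exact permutation p of 0.1 (adjusted 0.167 over the 10 ratios and shares compared). With a library left out, the difference in the Ago4 share was 6.13 to 9.32 percentage points. The Ago1 share was 36.8% ± 1.21 in control and 35.4% ± 1.48 in siTet1/Tet2 libraries (SD, n = 3, exact permutation p = 0.3), and the Ago3 share was 13.3% ± 1.73 and 12.9% ± 1.33 (SD, n = 3, exact permutation p = 0.6). Shares add to 100%, so a higher share of Ago4 must go with lower shares elsewhere.

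**Figure D3:**
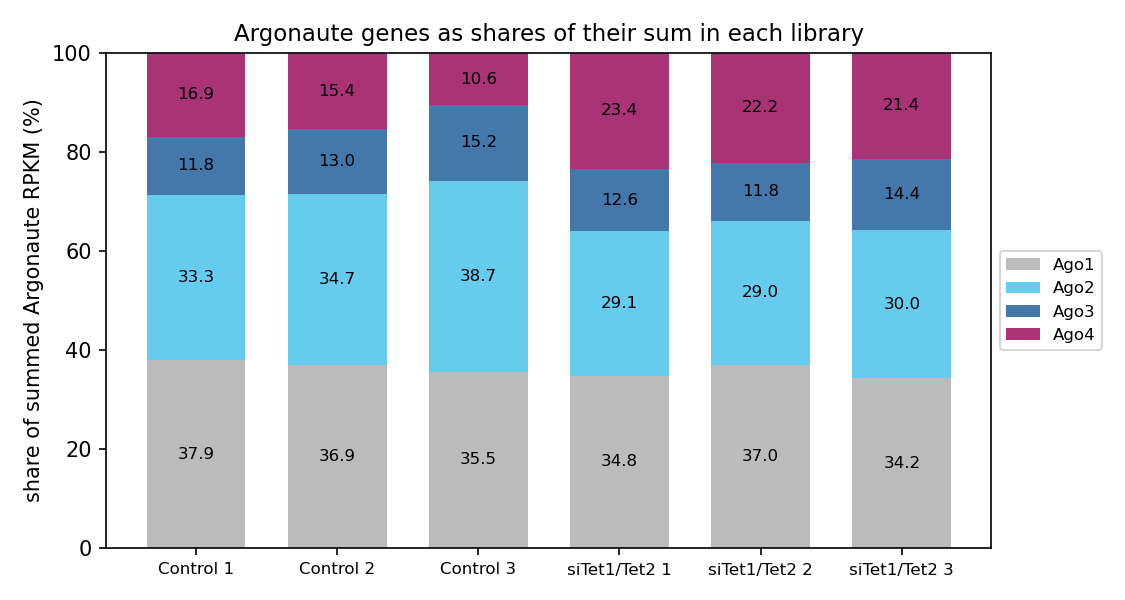
Stacked bars give the percent of the summed RPKM of Ago1, Ago2, Ago3 and Ago4 (vertical axis, 0 to 100) that each gene took in each of the 6 libraries. The Ago4 segment is 10.6% to 16.9% in Control and 21.4% to 23.4% in siTet1/Tet2 libraries, and the Ago2 segment is 33.3% to 38.7% and 29.0% to 30.0%.

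Against its tandem neighbours, Ago4 was also higher. The Ago4 to Ago1 ratio was 0.446, 0.419 and 0.297 in control and 0.673, 0.598 and 0.624 in siTet1/Tet2 libraries. The Ago4 to Ago3 ratio was 1.44, 1.18 and 0.694 in control and 1.86, 1.88 and 1.49 in siTet1/Tet2 libraries. Its means were 1.11 ± 0.378 and 1.74 ± 0.221 (SD, n = 3), and with a library left out their difference of 0.64 became 0.43 to 0.80. In both ratios the groups did not overlap (exact permutation p = 0.1, adjusted 0.167). Between the nuclear and cytoplasmic RNases, the Drosha to Dicer1 ratio went from 1.47 ± 0.133 to 1.17 ± 0.0210 (SD, n = 3), with every treated library below every control library (exact permutation p = 0.1). The Xpo5 to Drosha ratio went from 1.24 ± 0.0462 to 1.41 ± 0.0478 (SD, n = 3, exact permutation p = 0.1).

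Sfmbt2 (chromosome 2, 10370510 to 10595253, plus strand) was the lowest of the 10 genes. It was at 0.184, 0.171 and 0.155 RPKM in control and at 0.241, 0.118 and 0.265 RPKM in siTet1/Tet2 libraries. Of the treated libraries, 2 were above and 1 was below all the controls, so the groups overlapped, with means of 0.170 ± 0.0145 and 0.208 ± 0.0789 RPKM (SD, n = 3). On the log2 scale the difference was 0.04 (SE 0.07, 95% interval -0.11 to 0.20, limma adjusted p = 0.625). With a pseudocount of 0.01 in place of 1, which compresses low values less, it was 0.20 with a 95% interval of -0.73 to 1.13 (limma adjusted p = 0.710). Changes within that interval are compatible with these values. By the estimate from depth and the longest annotated transcript, only about 35.9 to 73.7 reads lay behind each value.

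The annotation places 119 microRNA genes inside Sfmbt2, all in intron 10 of its longest transcript (23 exons) and all on its strand, and 0 of them overlap an exon. The intron runs from 10461473 to 10523944 (62472 bp), and the microRNA genes span 52993 bp of it, from 10465287 to 10518279. By name, 5 belong to Mir297, 23 to Mir466, 14 to Mir467 and 29 to Mir669. The Mir297 genes are Mir297a-2 (10472254 to 10472343), Mir297c (10509016 to 10509113), Mir297b (10511667 to 10511775), Mir297a-3 (10515820 to 10515921) and Mir297a-4 (10517067 to 10517164). Of the 119, 70 have a row in the deposited table, and all 70 stand at the lowest listed value, 0.001 RPKM, in all 6 libraries. This was so for all 1193 symbols that start with Mir, and for 123 small nucleolar RNA symbols, so that these rows carry no measurement of microRNA levels. The RPKM of Sfmbt2 is the level of its spliced or partly spliced transcript as the authors counted it, and levels of the mature microRNAs were not analysed here.

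The nearest tested genes on either side of Sfmbt2 did not move as a block. Before it, Itih2 (239114 bp away) fell from 1.52 to 0.229 RPKM and Kin from 6.66 to 5.23 RPKM, whereas Atp5c1 was at 72.3 and 76.5 RPKM with overlapping groups (limma adjusted p = 1.66e-05, 0.0246 and 0.553). After it, Pfkfb3 (876180 bp away) rose from 10.8 to 14.8 RPKM and Rbm17 fell from 40.0 to 28.7 RPKM, and Il2ra was at 0.160 and 0.0743 RPKM (limma adjusted p = 0.00727, 0.000526 and 0.172). The 5 tested genes most like Sfmbt2 over the 6 libraries, by Pearson's r of log2(RPKM + 1), were Usp35 (0.983), Dnase1 (0.973), Endou (0.962), Atg16l2 (0.961) and Pip4k2a (0.956). Each was lowest among the treated libraries in siTet1/Tet2 replicate 2, as Sfmbt2 was. They were picked as the highest of all genes over 6 points, which are libraries of differing depth, and the values are a description.

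Sfmbt2 belongs to the family of MBT-domain proteins, chromatin factors that bind methylated histone tails. Of 10 genes listed, 9 MBT relatives and the DNA-binding partner gene Yy1, 7 were tested and 1 was called, or 14.3% beside 44.5% of all genes tested. Scmh1 went from 9.51 ± 0.730 to 7.84 ± 0.567 RPKM (SD, n = 3, limma adjusted p = 0.0483), and the call was lost with the replicate block (adjusted p = 0.0510), without any 1 of the 6 libraries (adjusted p 0.0573 to 0.127) and with no filter on low values (0.0675). Its log2 fold change went from -0.25 to -0.14 with median ratio scaling (limma adjusted p = 0.242) and to -0.09 with quantile normalization (0.450). The closest relative, Sfmbt1, was at 12.6 ± 1.18 and 12.1 ± 0.701 RPKM (SD, n = 3, adjusted p = 0.646), and Yy1 at 37.8 ± 3.14 and 35.1 ± 2.06 RPKM (SD, n = 3, adjusted p = 0.317), by limma. In control libraries the mean of Sfmbt1 was thus far above the 0.170 RPKM of Sfmbt2.

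Beside the 9 core processing genes, 43 other genes of the microRNA pathway were listed and 40 were tested. Of these, 15 fell and 2 rose, and 23 were not called, with a median log2 fold change of -0.15 where that of all genes was -0.09. The 17 called are 42.5% of those tested, beside 44.5% of all genes tested. Replicate numbers, treated as pairs, gave 19 lower and 4 higher, with Prkra and Tnrc6c added to those that rose. The balance depended on scaling, with 8 lower and 5 higher both after median ratio scaling and after quantile normalization, and 16 lower and 2 higher with libraries rescaled to the same sum. Among nuclear cofactors 5 of 11 fell and 1 rose, both export cofactors fell, 4 of 7 Dicer and loading cofactors fell, 3 of 15 silencing effectors fell, and among genes of precursor control and decay 1 fell and 1 rose of 5 tested. Lin28a, Lin28b and Trim71, regulators of let-7 and of early development, were under 0.03 RPKM in every library and were not tested.

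The largest falls among the pathway genes tested were those of Mov10 and Adar. Mov10, an RNA helicase that binds Argonautes, was at 20.9, 22.2 and 23.8 RPKM in control and at 6.52, 6.70 and 5.75 RPKM in siTet1/Tet2 libraries, a 3.53-fold fall of the mean (log2 fold change -1.67, SE 0.08, limma adjusted p = 5.1e-06). Adar, which edits adenosines in paired RNA including microRNA precursors, fell from 27.5 ± 2.17 to 12.7 ± 0.425 RPKM (SD, n = 3, log2 fold change -1.06, limma adjusted p = 2.2e-05). Both are also known as interferon-responsive genes. The chaperone gene Hsp90aa1, whose product opens Argonaute for loading, fell from 80.3 ± 7.79 to 46.9 ± 6.81 RPKM (SD, n = 3, limma adjusted p = 0.000749), and the decapping enzyme gene Dcp2 from 9.82 ± 2.14 to 5.58 ± 0.637 RPKM (SD, n = 3, limma adjusted p = 0.00472). The rises were those of Dis3l2, an exonuclease that degrades uridylated precursors of let-7, from 5.39 ± 0.624 to 7.38 ± 0.225 RPKM (SD, n = 3, limma adjusted p = 0.0102), and of the editing enzyme gene Adarb1, from 0.607 ± 0.0636 to 0.976 ± 0.0834 RPKM (SD, n = 3, limma adjusted p = 0.0104). The export cofactor Ran, the GTPase that Xpo5 needs to hold its cargo, fell from 93.7 ± 6.78 to 70.5 ± 2.10 RPKM (SD, n = 3, limma adjusted p = 0.00175). The Tnrc6 genes, which encode the GW182 partners of Argonautes, were not called with the values as deposited, at 19.4 and 16.3 RPKM for Tnrc6a, 2.83 and 3.45 RPKM for Tnrc6b and 4.45 and 5.47 RPKM for Tnrc6c. By limma, Tnrc6b and Tnrc6c were called higher without Control replicate 3 (log2 fold change 0.34 for both, adjusted p = 0.0338 and 0.0243) and with quantile normalization (0.42 and 0.41, adjusted p = 0.0120 and 0.00747). Tnrc6c was also called higher with median ratio scaling (adjusted p = 0.0207) and with the replicate block (0.0369), and Tnrc6a was called lower with the block (-0.24, adjusted p = 0.0352) and without Control replicate 1 (-0.35, adjusted p = 0.0413). Ran and the Tnrc6 genes were chosen for naming after their values were seen.

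**Figure D4:**
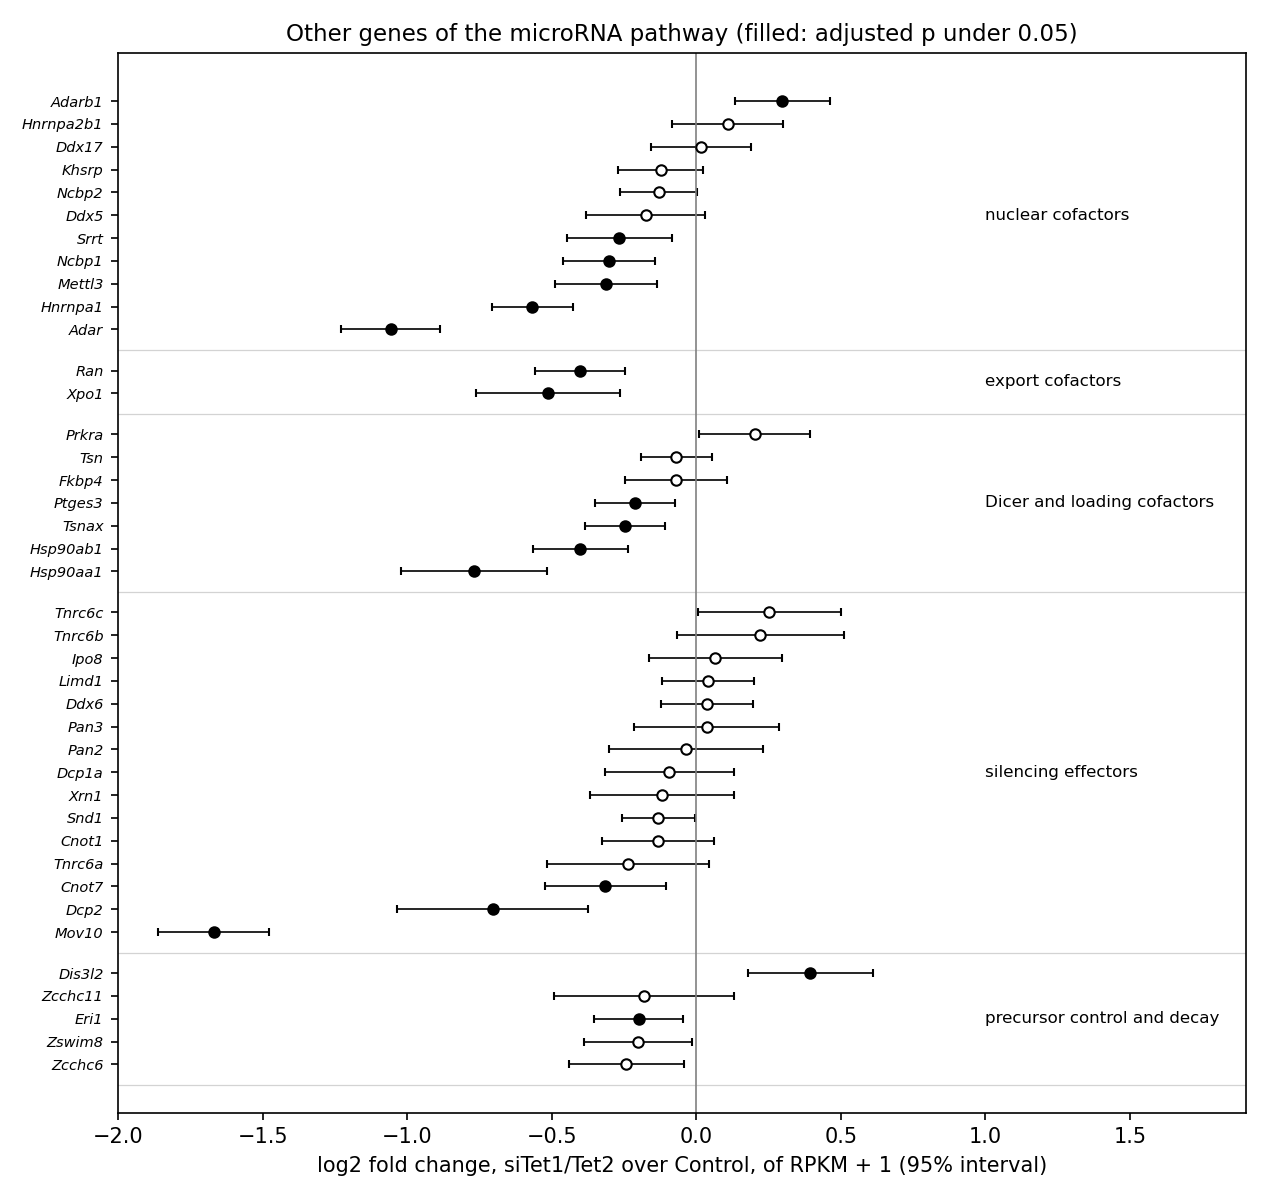
Points give the log2 fold change of RPKM + 1, siTet1/Tet2 over Control, with 95% intervals from limma, of the 40 other pathway genes tested, in their 5 groups. Filled points have an adjusted p under 0.05, and Mov10 (-1.67) and Adar (-1.06) lie farthest from 0, with 15 filled points to the left and 2 to the right.

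Sfmbt2 was also set beside other genes that host microRNAs. Of 37 hosts listed, the 7 noncoding hosts (Mir17hg, Mir22hg, H19, Meg3, Rian, Mirg and Dleu2) stood at 0.001 RPKM in every library, as did all but 62 of 7086 long noncoding RNA symbols. Of the 30 coding hosts, 27 were tested, of which 3 rose and 11 fell, with a median log2 fold change of -0.10. The 14 called are 51.9% of those tested, beside 44.5% of all genes tested. The count of hosts that fell was 8 after median ratio scaling and 8 after quantile normalization, and 8 to 10 with a library left out. The annotation places no same-strand microRNA gene in 2 of the listed hosts, Dnm2 and Dnm3, and without them 26 coding hosts were tested, with a median of -0.15 and 53.8% called. The falls were led by Slit2, a secreted guidance factor that hosts mir-218 (3.77 ± 0.637 to 1.00 ± 0.301 RPKM, limma adjusted p = 0.000175), Ptk2, which encodes focal adhesion kinase (15.0 ± 1.52 to 6.49 ± 0.642 RPKM, adjusted p = 7.4e-05), Slit3 (1.06 ± 0.257 to 0.219 ± 0.0776 RPKM, adjusted p = 0.000526) and the growth factor gene Igf2 (1.09 ± 0.0172 to 0.259 ± 0.0850 RPKM, adjusted p = 0.000116), each SD with n = 3. The 3 that rose were Ctdsp2 (14.5 ± 1.23 to 19.3 ± 0.396 RPKM, limma adjusted p = 0.00334), Ctdsp1 (28.3 ± 2.26 to 33.9 ± 1.30 RPKM, adjusted p = 0.0231) and Ppargc1b (0.449 ± 0.0939 to 0.723 ± 0.0572 RPKM, adjusted p = 0.0255), each SD with n = 3. Ctdsp2 and Ctdsp1 encode phosphatases and host mir-26 genes, and their relative Ctdspl, which hosts the remaining mir-26 gene, fell from 5.31 ± 0.554 to 3.50 ± 0.0995 RPKM (SD, n = 3, limma adjusted p = 0.00338). Ctdspl was chosen for naming after its values were seen. By limma, the Ctdsp1 call was lost without siTet1/Tet2 replicate 2 (adjusted p = 0.0929) or 3 (0.0511), and the Ppargc1b call without Control replicate 1 (0.0803) or siTet1/Tet2 replicate 1 (0.0816) or 3 (0.0626). Without siTet1/Tet2 replicate 3, only Ctdsp2 of the hosts rose. Sfmbt2, with overlapping groups, was not among the hosts called, and the difference between its change and theirs was not tested.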

How the data were processed

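RNA-seq was measured in 3 Control and 3 siTet1/Tet2 libraries of BMMSC total RNA (paired-end, Illumina HiSeq). Per the study's methods, the authors removed adaptors, aligned to GRCm38, quantified with DNASTAR Lasergene (15.0 in the submitters' processing notes) and deposited RPKM on a linear scale, which the methods name FPKM. The annotation release, strand use and multi-mapping reads are not given in the sources used here. The table has 36915 rows, its lowest listed value is 0.001, and its column of the authors' p-values holds their own comparison and was not used. Of repeated rows (37 symbols), that with the largest mean entered the fit.

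The 13266 genes averaging 0.1 RPKM or more were tested two-sided as log2(RPKM + 1) with limma 3.58.1 (lmFit, eBayes with trend) in R 4.3.3, with Benjamini-Hochberg adjustment over all of them, after the code had been tested on simulated data. Ratios within libraries were compared with exact permutation tests (scipy 1.17.1). Alternatives were other pseudocounts, filters, scalings and variance settings, a replicate block, each library left out, summed rows and thresholds on p and fold. Depth, estimated from the steps of low RPKM values as 32400000 to 38600000 reads per library, is not recorded in the table, and 53.8% to 58.2% of the values used came within 0.1 of a whole read, so no count test was run. Libraries of a group correlated with r of 0.992 to 0.997 and those of different groups with 0.949 to 0.969. Replicate numbers are shared between groups in the labels, and same-numbered libraries deviated together (r = 0.149, 0.117 and 0.462), so they were treated as pairs in the block. That rests on these correlations alone, since no source says what a number stands for, and differently numbered libraries reached 0.332. Positions are from GENCODE M21 and promoters from RefSeq (GRCm38.p6). Longest annotated transcripts were found for 94.5% of the genes tested.

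The genes, lists and tests were chosen with earlier results of these data known. Named from each list were the called genes with the largest changes, up to 4 per direction, the 3 nearest tested genes on each side of Sfmbt2, and the 5 genes most correlated with it.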

Additional observations from a re-analysis of the deposited data

How the results depend on the processing

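The 10 genes kept their direction in most settings, and Drosha and Ago4 were called in all 17 fits at an adjusted p under 0.05. Fewer of the 10 were called lower (3 as deposited) with median ratio scaling (1) and after quantile normalization (1), and fewer were called higher (2 as deposited) when libraries were rescaled to the same sum (1). At the study's limits on p and fold, applied on the log2(RPKM + 1) scale, 0 were called lower and 0 higher. With the fold taken as the ratio of mean RPKM, an alternative chosen after seeing the data, 0 were called lower and 1 (Ago4) higher. With a library left out, 2 to 3 were called lower and 1 to 3 higher. Other pathway genes called lower (15) went to 8 after median ratio scaling and 8 after quantile normalization, and were 10 to 17 with a library left out. Those called higher (2) went to 5 with either of these scalings, 4 with the replicate block, and 2 to 4 with a library left out, the 4 without Control replicate 3. With a minimum mean of 1 RPKM, 1 was called higher, since Adarb1 was under that minimum and was not tested. Host genes called lower (11) went to 8 with median ratio scaling, 8 with quantile normalization and 8 to 10 with a library left out. Host genes called higher (3) went to 5 with quantile normalization, 2 with libraries rescaled to the same sum and 1 to 3 with a library left out. The replicate block changed no call of the 10 genes.

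The log2 fold change of Dgcr8 turned to 0.017 with quantile normalization, that of Dicer1 to 0.0407 with median ratio scaling, 0.0872 with quantile normalization and 0.0396 without Control replicate 3 (-0.162 to 0.0396 over the libraries left out), and that of Ago2 to -0.0398 without Control replicate 1 (-0.0398 to 0.215 over the libraries left out). The Ago3 share, lower by 0.42 percentage points as deposited (difference -0.42), was 0.0205 higher with quantile normalization, 0.51 higher without Control replicate 3 and 0.15 higher without siTet1/Tet2 replicate 2, with differences of -1.20 to 0.51 over the libraries left out. The causes were not tested. Few reads lay behind Sfmbt2, and the microRNA rows, all at the lowest listed value, carry no information.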
